A study of Homo sapiens with 40 samples.

Results

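Interferon-stimulated genes are the genes that cells switch on after interferon reaches its receptor. A list of 40 of them was followed in A2058, an established human melanoma cell line, across 9 treatments with inhibitors of phosphoinositide 3-kinase (PI3K) and the solvent control. The genes were listed by symbol, and each was read from its brightest probe set, by mean log2(signal + 16) over the 40 arrays. Of the 40 genes, 39 were matched to a probe set, among 19775 genes with a probe set of a single symbol. STAT2 was not matched and is not analysed here. A further 4 genes, OAS2, IFI27, XAF1 and TRIM22, fell below the filter on dim genes, which left 35 genes in the tests among 11865 genes in all.

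Cells were treated once for 24 hours with BKM120 (buparlisib, an inhibitor of class I PI3K) at levels labelled IC30, IC50 and IC90 (max), with BEZ235 (dactolisib, an inhibitor of PI3K and of the kinase mTOR) at IC50, IC90 and max, with GDC0941 (pictilisib, an inhibitor of class I PI3K, spelled GCD0941 in the labels) at IC50, IC90 and max, or with DMSO. Each of the 10 groups held 4 biological replicates of this single line, so p-values measure the spread between cultures of A2058 and not between tumours. Neither the molar doses nor the response behind the IC levels is given in the labels. Per the labels, no group was given interferon.

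Type I interferons bind the receptor IFNAR1 and IFNAR2, whose kinases JAK1 and TYK2 phosphorylate transcription factors. A complex that holds STAT2 and IRF9 then binds a promoter element called the interferon-stimulated response element (ISRE), whereas interferon gamma acts mainly through gamma-activated sites (GAS). The induced proteins sense viral RNA, degrade it, block its translation, stop viral fusion or conjugate the ubiquitin-like protein ISG15 to other proteins. Many of these genes keep a low level of expression in cells that have met no added interferon.

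RefSeq promoters (GRCh38.p14, 300 bases from 250 before to 50 after the annotated start) were available for 31 of the 40 genes. The ISRE core, searched on both strands as GAAA, any 2 bases and GAAA again (read on the other strand as TTTC, 2 bases and TTTC), was found in 20 of these 31 promoters (64.5%), against 996 of all 27305 promoters (3.65%). The GAS core, searched as the palindrome TTCNNNGAA, was found in 9 of 31 (29.0%), against 2152 of all promoters (7.88%). Matches to the 2 motifs overlapped in 4 of the 31 promoters. The 5 promoters printed here were picked from genes that changed after BEZ235, 3 that rose and 2 that fell, and all 5 hold an ISRE match. They are written in the direction of transcription with motif matches in capitals. That of DDX60 lies at chr4:168318703-168319002 on the minus strand, that of IFIH1 at chr2:162318635-162318934 on the minus strand and that of OAS3 at chr12:112938224-112938523 on the plus strand. That of IFIT1 lies at chr10:89392373-89392672 on the plus strand and that of GBP1 at chr1:89065159-89065458 on the minus strand.
DDX60: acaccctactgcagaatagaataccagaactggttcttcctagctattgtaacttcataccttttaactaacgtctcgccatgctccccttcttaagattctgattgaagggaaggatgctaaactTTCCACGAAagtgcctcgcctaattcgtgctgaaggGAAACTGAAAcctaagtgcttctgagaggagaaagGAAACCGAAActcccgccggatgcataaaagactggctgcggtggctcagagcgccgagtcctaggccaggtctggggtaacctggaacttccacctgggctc
IFIH1: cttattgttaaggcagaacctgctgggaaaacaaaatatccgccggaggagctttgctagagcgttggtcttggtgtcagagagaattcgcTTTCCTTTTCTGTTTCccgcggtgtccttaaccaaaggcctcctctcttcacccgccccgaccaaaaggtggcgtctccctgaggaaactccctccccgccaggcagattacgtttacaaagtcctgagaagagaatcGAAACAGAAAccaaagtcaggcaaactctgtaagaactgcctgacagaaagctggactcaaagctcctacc
OAS3: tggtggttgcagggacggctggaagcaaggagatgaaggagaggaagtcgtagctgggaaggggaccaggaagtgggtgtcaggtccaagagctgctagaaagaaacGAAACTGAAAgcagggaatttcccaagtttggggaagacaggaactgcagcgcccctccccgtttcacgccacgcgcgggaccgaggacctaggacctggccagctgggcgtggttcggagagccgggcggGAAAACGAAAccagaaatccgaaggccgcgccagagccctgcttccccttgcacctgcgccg
IFIT1: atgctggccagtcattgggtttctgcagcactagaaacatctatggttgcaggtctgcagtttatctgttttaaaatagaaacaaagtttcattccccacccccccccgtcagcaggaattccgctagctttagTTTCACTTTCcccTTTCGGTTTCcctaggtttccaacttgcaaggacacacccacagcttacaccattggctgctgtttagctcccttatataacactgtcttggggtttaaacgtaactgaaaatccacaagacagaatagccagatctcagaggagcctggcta
GBP1: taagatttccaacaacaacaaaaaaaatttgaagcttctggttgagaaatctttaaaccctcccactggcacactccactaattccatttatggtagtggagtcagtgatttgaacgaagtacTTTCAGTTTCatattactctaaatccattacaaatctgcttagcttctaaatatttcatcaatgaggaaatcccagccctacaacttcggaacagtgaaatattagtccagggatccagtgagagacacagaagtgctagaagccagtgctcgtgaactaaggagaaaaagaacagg
DDX60 and IFIT1 each held 2 ISRE matches, and DDX60 also held 1 GAS match, upstream of the ISRE matches. IFIH1 held 3 ISRE matches, of which a pair overlap, OAS3 held 2 and GBP1 held 1. The promoters of RSAD2 and HERC6, not printed, held no match to either motif. These 2 genes had the largest rises of the list at BEZ235 max (log2 changes of 1.0249 and 1.0195). DDX60, IFIH1 and OAS3 rose with BEZ235 at max, whereas IFIT1 and GBP1 fell. Over the tested genes with a promoter, 8 of 19 with an ISRE match rose and 3 fell at BEZ235 max against DMSO, with a median log2 change of 0.18. Of the 9 without a match, 4 rose and 1 fell, with a median of 0.20. Both shares were close to the 57.7% of all tested genes called there (32.8% up and 24.9% down). A match is a run of letters in this window and not a measured binding site.

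All values are MAS5 signals, which the submitters scaled to a common trimmed mean on each array. Control probe sets for GAPDH and ACTB gave 3′ to 5′ signal ratios of 1.05 to 1.265 and of 1.584 to 2.325 on 39 arrays. BEZ235 IC50 replicate 3 stood apart, with ratios of 3.442 and 27.175, and the cause was not tested. The spread inside its group was correspondingly wide, with a median SD over all genes tested of 0.2001 on the log2 scale. Counts for this group are therefore also given on 39 arrays. Of 9 listed melanoma and melanocyte markers, 8 were matched and all 8 were tested. Their summed signals ranged from 8934.6 to 9404.1 at BEZ235 max, against 7948.5 to 8451.2 in DMSO, and there MLANA rose (log2 change 1.51, adjusted p = 1.35e-20) and S100B fell (-0.87, adjusted p = 1.07e-15). Summed signals of 14 markers of blood, endothelial, epithelial and fibroblast cells ranged from 936.0 to 1266.9 at BEZ235 max, against 1390.7 to 1642.3 in DMSO. None of the 14 was at 0 on any array. PTPRC, CD3E, CD14, VWF, CDH5, EPCAM, KRT5 and CDH1 had mean signals under 5, whereas LUM and LYZ were clearly expressed. Between these lay HBB (mean signal 9.94), PECAM1 (14.99), DCN (45.23) and PDGFRA (49.1). All 3 listed fibroblast markers, LUM, DCN and PDGFRA, passed the filter on dim genes. Whether these markers have a part in the results was not tested.

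A gene was called when its adjusted p was under 0.05 in limma, with Benjamini-Hochberg adjustment over all 11865 genes, and only called genes are said to have risen or fallen. More of the 35 tested genes were called with BEZ235 IC90 than with any other treatment. At BEZ235 IC90, 20 rose and 8 fell against DMSO, 80% of the genes tested, beside 55% of all genes, 31.1% up and 23.9% down. That count of 28 was lower under several alternatives. It was 23 after quantile normalization, 23 without a filter on dim genes and 23 to 26 with an array of either group left out. On 39 arrays it stayed at 28. At BEZ235 max, 16 rose and 5 fell (60%), beside 57.7% of all genes, 32.8% up and 24.9% down, so the share there was near that of the whole array. At BEZ235 IC50, 15 rose and 6 fell (60%), beside 45.5% of all genes, 26.6% up and 18.9% down. On 39 arrays 16 rose and 5 fell there. Shares of all genes were computed only for the reported fit, so counts under alternatives, here and below, stand without them.

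Fewer were called with GDC0941 and BKM120. With GDC0941 IC50, 6 rose and 2 fell (22.9%, beside 16.1% of all genes, 9.94% up and 6.19% down). With GDC0941 IC90, 9 rose and 3 fell (34.3%, beside 25.3% of all genes, 15.4% up and 9.83% down). With GDC0941 max, 11 rose and 4 fell (42.9%, beside 43.7% of all genes, 25.5% up and 18.2% down). The split at GDC0941 max was 9 up and 6 down after quantile normalization. For BKM120, 12 rose and 1 fell at IC30 (37.1%, beside 21.4% of all genes, 13.2% up and 8.16% down). At BKM120 IC50, 9 rose and none fell (25.7%, beside 19.8% of all genes, 12.6% up and 7.24% down). After quantile normalization 9 rose and 4 fell there, and on 39 arrays 13 rose and 2 fell. At BKM120 IC90 (max) the balance turned, with 6 up and 11 down (48.6%, beside 34.2% of all genes, 17.2% up and 17% down). With an array of either group left out, 13 to 16 genes were called there. The falls include RIGI, for which no direction is drawn below. They also include IFIT2, ISG20 and HERC5, whose calls were lost without certain single arrays. The median log2 change of the 35 genes there was -0.06, against -0.00 over all genes. Medians at the other 8 treatments ran between 0.08 and 0.25, against 0.01 to 0.04 over all genes. After quantile normalization these medians were 0.03 to 0.16, and that at BKM120 IC90 (max) was -0.10.

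**Figure D1:**
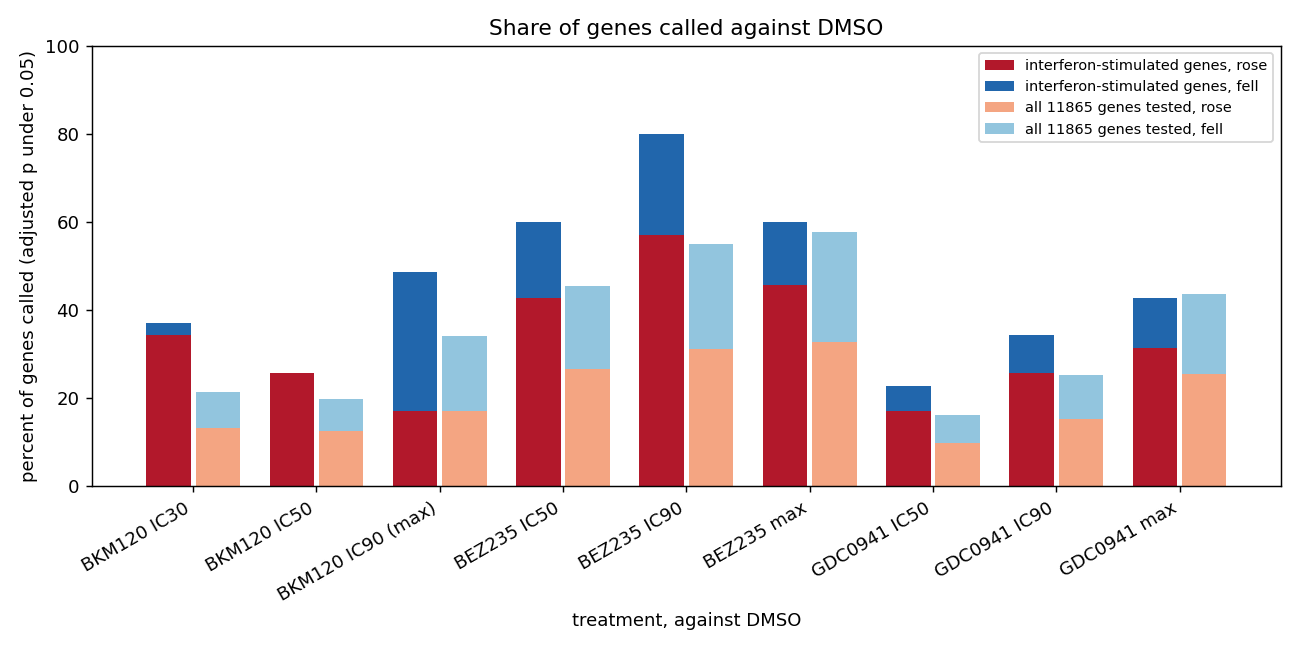
Share of genes called against DMSO in each treatment, as a percent of the 35 interferon-stimulated genes tested (dark bars) and of all 11865 genes tested (light bars), with risen genes below and fallen genes above. The share reached 80% at BEZ235 IC90, and BKM120 IC90 (max) was the treatment in which more of the 35 genes fell than rose.

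Most changes of the 35 genes were under 2-fold. At BEZ235 max, 3 genes rose and 2 fell by 2-fold or more, and the lowest and highest log2 changes of any of the 35 genes were -1.14 and 1.02. The share of all genes past 2-fold was not computed, so whether these genes differ from the array in this was not tested. SAMD9, which restricts poxviruses, was called in none of the 9 treatments by its brightest probe set. The signal of that set was 208.1, 234.4, 230.8 and 203.2 at BEZ235 max, against 179.3, 218.8, 172.1 and 199.3 in DMSO. A second SAMD9 set above the filter, not tested by itself, gave log2 changes from -0.13 (BEZ235 IC50) to 0.315 (BKM120 IC30).

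**Figure D2:**
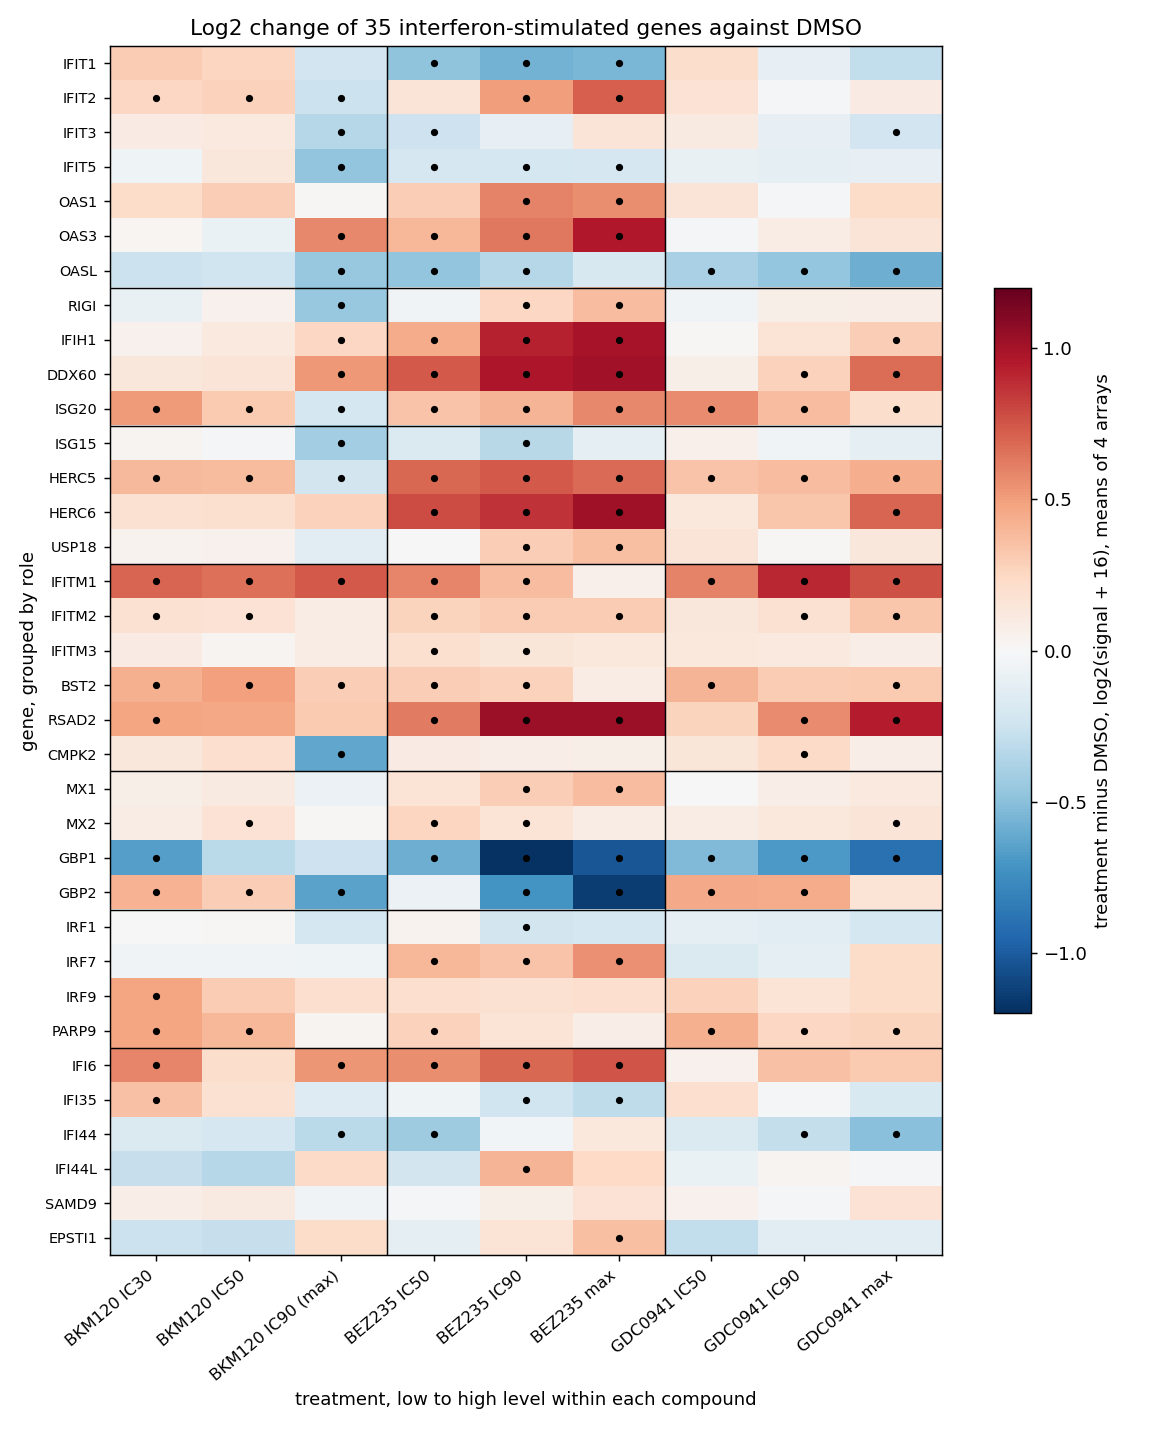
Log2 change against DMSO of the 35 tested interferon-stimulated genes (rows, grouped by role) in the 9 treatments (columns, low to high level within each compound), as differences of means of 4 arrays. DDX60, IFIH1, OAS3, HERC6 and RSAD2 were well above DMSO at BEZ235 max, GBP1 was below DMSO in all 9 columns, and many rows changed sign between BKM120 IC30 and BKM120 IC90 (max).

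Among the sensors and nucleases that act on viral RNA, DDX60, IFIH1 and ISG20 rose at BEZ235 IC90 and BEZ235 max. By their brightest probe sets, all 4 genes of this group rose at BEZ235 IC90 and at BEZ235 max, with a median log2 change of 0.78 at max, beside 0.04 over all genes and 32.8% of all genes risen, although the probe sets of the fourth, RIGI, disagreed. DDX60, a helicase reported to promote signalling by the RIG-I-like receptors, had signals of 334.4, 352.7, 325.0 and 322.4 at BEZ235 max, against 159.5, 160.2, 143.3 and 169.2 in DMSO. Every treated array lay above every DMSO array, and the log2 difference was 1.01 (SE 0.08, adjusted p = 1.3e-13). DDX60 also rose at GDC0941 max, with signals of 280.4, 239.5, 243.9 and 279.7, and at BKM120 IC90 (max), with 254.0, 243.7, 227.4 and 209.0, in both cases with no overlap with DMSO. The log2 differences were 0.67 (SE 0.08, adjusted p = 7.69e-09) and 0.52 (SE 0.08, adjusted p = 1.86e-06). At the lowest level of BKM120 and of GDC0941 it was not called.

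IFIH1, the sensor of long double-stranded RNA also called MDA5, had signals of 257.4, 264.7, 316.2 and 308.3 at BEZ235 max, against 119.5, 145.6, 139.4 and 141.5 in DMSO. The groups lay far apart, with a log2 difference of 0.99 (SE 0.09, adjusted p = 5.42e-12). It stood at 0.92 at BEZ235 IC90 (adjusted p = 4.19e-11) and 0.44 at BEZ235 IC50 (adjusted p = 0.000103). With GDC0941 it rose only slightly, by 0.30 at max (adjusted p = 0.00595). Its rise at BKM120 IC90 (max), 0.25 (adjusted p = 0.0244), was not called without DMSO replicate 1 (log2 change 0.20, adjusted p = 0.111), nor without BKM120 replicate 2 or 3 (adjusted p of 0.1 and 0.0835). With the mean over its 3 probe sets, 2 of them very dim, neither of these small rises was called.

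RIGI, the sensor of short RNA with a triphosphate end, rose by 0.37 at BEZ235 max (adjusted p = 0.00187) and fell by 0.46 at BKM120 IC90 (max) (adjusted p = 0.00048). Its brightest probe set is a cross-hybridising design, and the 2 others above the filter did not all move with it. At BKM120 IC90 (max) they gave log2 changes of -0.06 and -0.37, and at BEZ235 IC90, where RIGI was called at 0.25, they gave -0.20 and -0.06. At BEZ235 max the change was -0.08 when cross-hybridising sets gave way to another set (adjusted p = 0.595). No direction is therefore drawn for RIGI. ISG20, an exonuclease that degrades viral RNA, rose in 8 of the 9 treatments. Its signal was 559.5, 451.4, 480.7 and 524.7 at BEZ235 max, against 329.4, 311.6, 351.0 and 337.9 in DMSO. The exception was BKM120 IC90 (max), where it fell to 286.7, 283.4, 304.0 and 267.3, below every DMSO array (log2 change -0.21, adjusted p = 0.0297). That call was lost without DMSO replicate 3 or 4 or without BKM120 replicate 1, 2 or 4, at an adjusted p of up to 0.0958, and after quantile normalization. The rise at GDC0941 max was likewise lost after quantile normalization and without DMSO replicate 2 or GDC0941 replicate 3 or 4 (adjusted p of up to 0.0815).

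**Figure D3:**
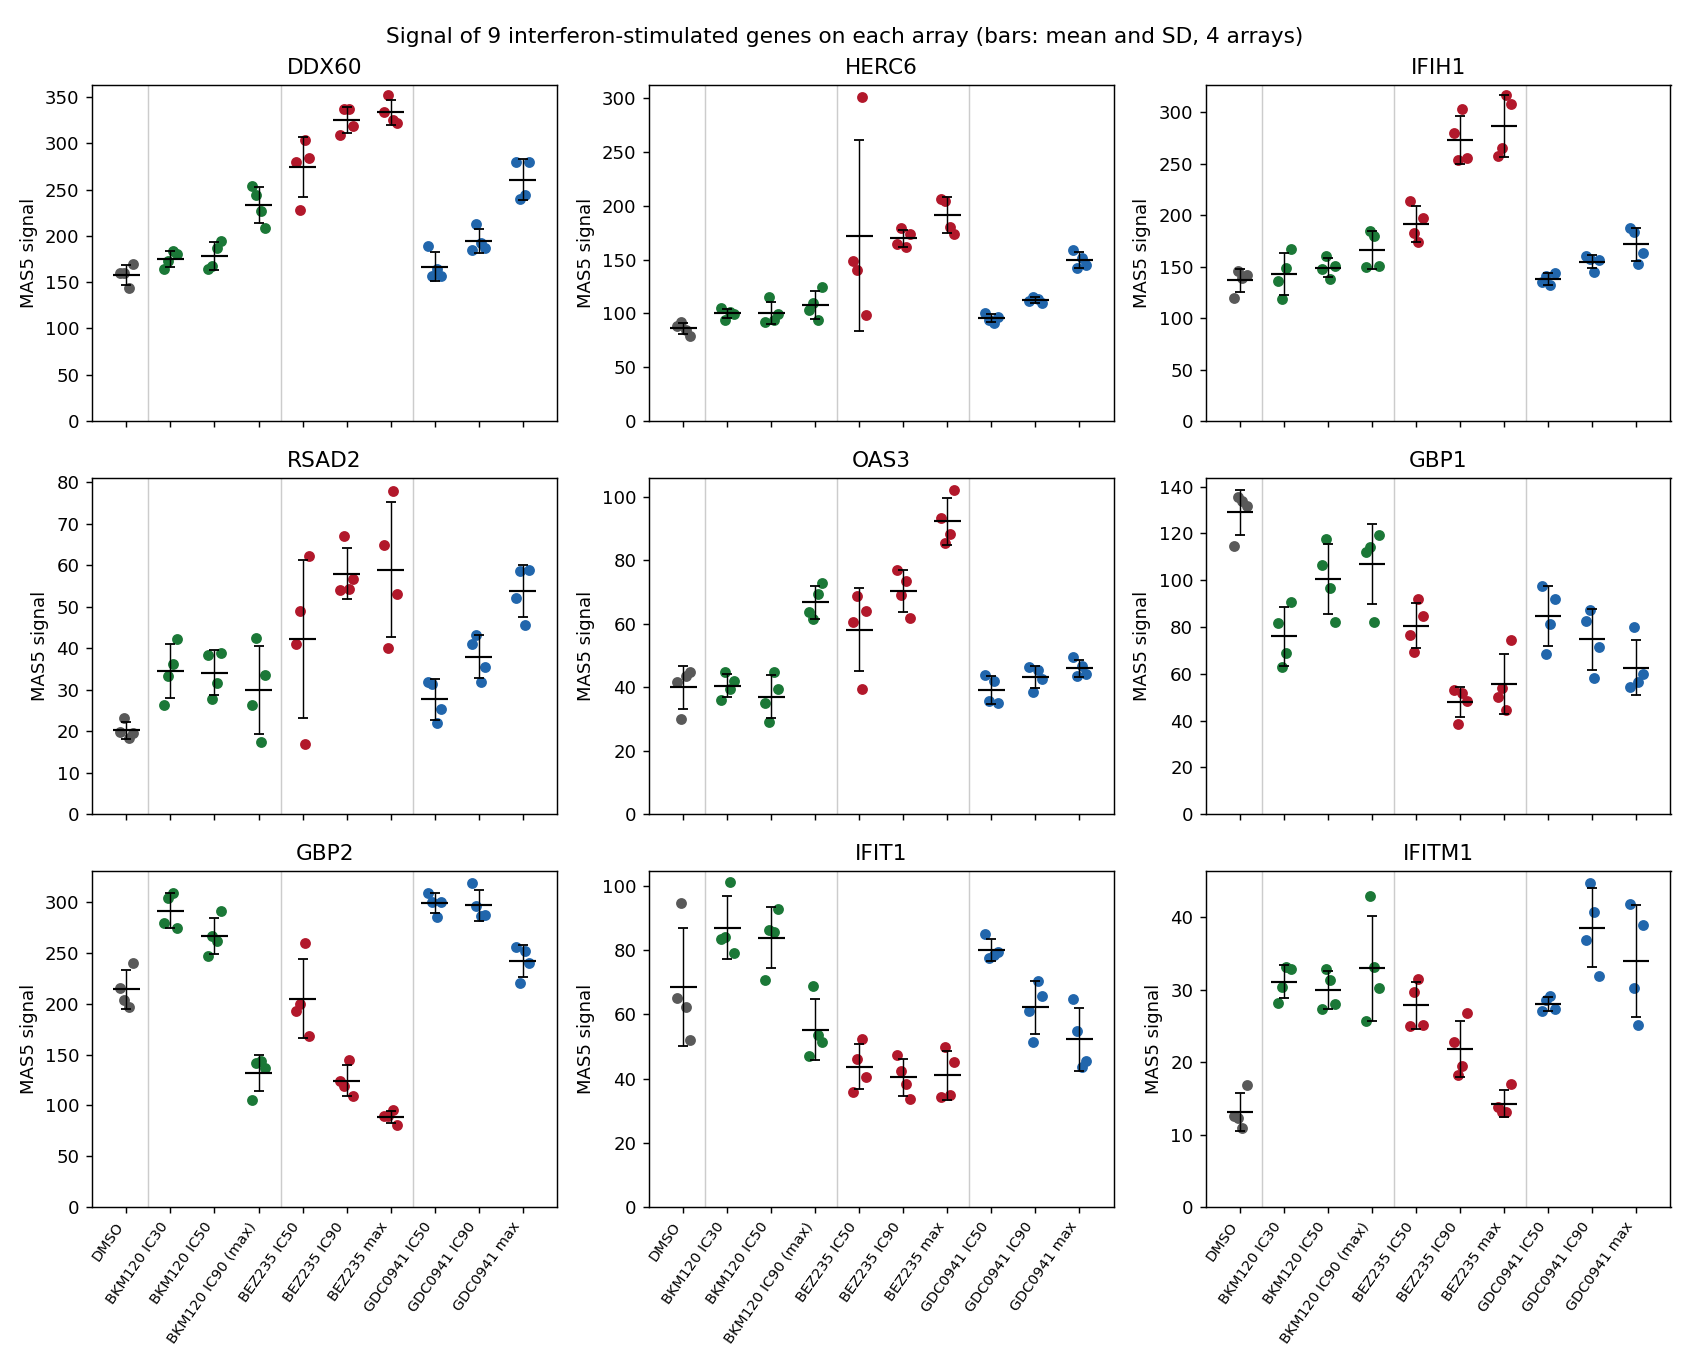
MAS5 signal of 9 interferon-stimulated genes on each of the 40 arrays (points), with the mean and SD of the 4 arrays of each group; DMSO stands at the left, then the levels of each compound from low to high. DDX60 and IFIH1 were higher at BEZ235 max than at BEZ235 IC50, GBP1 and GBP2 were lowest with BEZ235, and HERC6 shows the high point of BEZ235 IC50 replicate 3 at 301.2.

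The IFIT and OAS families split. IFIT proteins bind viral RNA and block its translation, and their genes lie together on chromosome 10. IFIT2 had signals of 205.1, 208.7, 188.4 and 201.7 at BEZ235 max, against 121.2, 121.8, 112.1 and 107.5 in DMSO, a log2 change of 0.72 (SE 0.09, adjusted p = 1.21e-08) with no overlap. Its neighbour IFIT1 had 34.2, 49.8, 34.9 and 45.1 at BEZ235 max, against 65.0, 94.6, 62.1 and 51.9 in DMSO. All 4 treated arrays lay below DMSO, by 0.55 on average on the log2 scale (change -0.55, SE 0.12, adjusted p = 0.000241). IFIT1 fell at all 3 levels of BEZ235 and was called with neither of the other compounds. IFIT5 fell slightly at the 3 BEZ235 levels, by 0.20 to 0.21, although on 39 arrays its fall at BEZ235 IC50 was not called (log2 change -0.18, adjusted p = 0.0618). At all 3 levels the IFIT5 call was lost without DMSO replicate 2 (adjusted p of up to 0.152), and also without BEZ235 IC50 replicate 1 or 2, IC90 replicate 2 or max replicate 1. IFIT3 fell at BEZ235 IC50 (log2 change -0.25, adjusted p = 0.00432) and was not called at BEZ235 max, where its change was 0.15. At BKM120 IC90 (max), 4 of the 7 tested genes of these families fell, namely IFIT2, IFIT3, IFIT5 and OASL, beside 17% of all genes. The IFIT2 fall was lost without DMSO replicate 1 or 2 or BKM120 replicate 1 or 3 (adjusted p of up to 0.0624).

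OAS enzymes make an oligoadenylate that activates RNase L. OAS3 had signals of 93.4, 85.4, 88.4 and 102.3 at BEZ235 max, against 41.5, 30, 43.6 and 44.7 in DMSO. The treated arrays were about 2-fold brighter with no overlap (log2 change 0.96, SE 0.11, adjusted p = 7.19e-10). OAS3 also rose at BKM120 IC90 (max), with 63.7, 61.4, 69.3 and 72.8 and a log2 change of 0.57 (adjusted p = 4.31e-05), but was not called at any level of GDC0941. The dim gene OAS1 rose at BEZ235 IC90 (0.60, adjusted p = 0.00324) and BEZ235 max (0.56, adjusted p = 0.00527). OASL, a relative without the enzyme activity, moved the other way. It had 13.2, 14.5, 14.6 and 10.9 at GDC0941 max, against 27.0, 34.7, 24.5 and 26.6 in DMSO, a change of -0.59 (adjusted p = 1.78e-05). OASL fell in 6 of the 9 treatments, among them all 3 levels of GDC0941. The gene was dim, and its second probe set, below the filter, gave -0.02, -0.01 and -0.12 at those levels. The falls therefore rest on the brighter set. OAS2, with signals of 0.4 to 10.9 on all arrays, was too dim to test.

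Of the 4 genes listed under ISG15 conjugation, 3 rose at BEZ235 max, namely HERC5, HERC6 and USP18, beside 32.8% of all genes. ISG15 itself was not called there, and conjugation was not measured. HERC5, the main human ligase for ISG15, rose in 8 treatments. It had 459.7, 435.4, 431.8 and 436.2 at BEZ235 max, against 253.8, 286.9, 262.2 and 275.7 in DMSO (log2 change 0.68, SE 0.09, adjusted p = 2.82e-08), so that the groups were well separated. At BKM120 IC90 (max) it fell, with 221.6, 236.1, 232.2 and 223.3 (log2 change -0.22, adjusted p = 0.0446). The fall was not called when DMSO replicate 2, 3 or 4 or any 1 of the BKM120 arrays was left out, at an adjusted p of up to 0.119.

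HERC6, a related ligase, had 206.1, 204.5, 180.2 and 173.6 at BEZ235 max, against 88.1, 92.2, 84.5 and 79.3 in DMSO, a change of 1.02 (SE 0.14, adjusted p = 1.49e-07). Every treated array lay far above DMSO. HERC6 rose at all 3 levels of BEZ235 and at GDC0941 max (0.70, adjusted p = 0.000131). At BEZ235 IC50 replicate 3 was the highest for both ligases, at 301.2 for HERC6 and 650.1 for HERC5. On 39 arrays the changes there were 0.49 for HERC6 (adjusted p = 2.88e-05) and 0.51 for HERC5 (adjusted p = 3.51e-10), beside 0.78 and 0.69 on 40 arrays.

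ISG15 had 122.5, 123.6, 136.4 and 149.8 at BEZ235 IC90, against 175.0, 177.3, 166.9 and 166.7 in DMSO, and fell there (log2 change -0.33, adjusted p = 0.00123). It also fell at BKM120 IC90 (max), by 0.42 (adjusted p = 0.000208), and rose in none of the 9 treatments. USP18, which removes ISG15 from its targets and dampens signalling at the type I receptor, rose at BEZ235 IC90 (0.30, adjusted p = 0.00441) and BEZ235 max (0.36, adjusted p = 0.000766).

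Among membrane and lipid proteins, IFITM1 rose in 8 of the 9 treatments. It belongs to a family that blocks fusion of viral and cell membranes. Its signals were 36.9, 44.7, 40.8 and 31.9 at GDC0941 IC90, against 12.6, 12.3, 10.9 and 16.9 in DMSO, a log2 change of 0.90 (SE 0.10, adjusted p = 8.21e-09). IFITM1 was below the dimness limit in DMSO and passed the filter through the treated groups. With BEZ235 its level was lower at higher doses, at 25.0, 29.7, 31.5 and 25.2 at IC50 and 13.9, 13.2, 13.1 and 17.0 at max. The change against DMSO at BEZ235 max was 0.06 and not called. The far brighter IFITM2 and IFITM3 moved little, and IFITM2 rose by 0.17 to 0.34 in 7 treatments. Both are measured only by cross-hybridising probe sets, so their family members may share signal.

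RSAD2 encodes viperin, an enzyme that makes a chain-terminating nucleotide. It had 64.9, 40, 78.0 and 53.0 at BEZ235 max, against 19.8, 23.2, 18.4 and 19.5 in DMSO. Even the lowest treated array was above the highest DMSO array (log2 change 1.02, SE 0.17, adjusted p = 3.32e-06). RSAD2 also rose at GDC0941 max, with 52.1, 58.6, 45.6 and 58.9 (log2 change 0.94, adjusted p = 2.33e-05). At BEZ235 IC50 replicate 3 gave its lowest value, 16.9, and the change was 0.87 on 39 arrays, beside 0.62 on 40. CMPK2, the nucleotide kinase gene beside RSAD2 on chromosome 2, was called at no level of BEZ235 on 40 arrays. It had 318.5, 317.5, 290.9 and 305.1 at BEZ235 max, against 301.3, 294.2, 291.5 and 280.1 in DMSO. On 39 arrays it rose at BEZ235 IC50 (log2 change 0.21, adjusted p = 0.016). It fell to 187.0, 201.9, 165.5 and 181.6 at BKM120 IC90 (max), far below DMSO (log2 change -0.62, SE 0.08, adjusted p = 2.11e-07). BST2, also called tetherin, holds budding virus at the cell surface and rose in 7 treatments. Its DMSO signals overlapped those of most treatments, at 12.9, 33.1, 20.8 and 19.9. Without DMSO replicate 1, the lowest, 6 of its 7 calls were lost (adjusted p of 0.0604 to 0.263), with BKM120 IC50 the exception.

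The guanylate-binding proteins, large GTPases that respond mainly to interferon gamma, fell at BEZ235 IC90 and max. GBP1 had 53.0, 38.7, 51.6 and 48.4 at BEZ235 IC90, against 114.8, 135.7, 134.0 and 131.6 in DMSO. All treated arrays lay far below DMSO (log2 change -1.19, SE 0.13, adjusted p = 9.78e-10). GBP1 fell in 7 of the 9 treatments, including GDC0941 max at 54.4, 79.8, 56.3 and 60 (log2 change -0.89, adjusted p = 6.24e-07). At BKM120 IC50 and IC90 (max), where it was not called, the changes were -0.32 and -0.25. Its 2 other probe sets above the filter had the same sign in all 7 called treatments.

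GBP2 changed direction with the treatment. It had 89.5, 89.2, 95.2 and 80.4 at BEZ235 max, against 215.7, 203.6, 196.4 and 240.4 in DMSO, a change of -1.14 (SE 0.09, adjusted p = 4.92e-13) with no overlap. It fell by 0.64 at BKM120 IC90 (max) (adjusted p = 8.22e-07). At GDC0941 IC50 it rose instead, with 308.9, 300.2, 285.4 and 300.2, all above DMSO (log2 change 0.46, adjusted p = 0.000474). The falls were seen with both GBP2 probe sets, whereas the second set gave -0.25 at GDC0941 IC50, so the rises rest on the brighter set. With the mean over probe sets the GDC0941 IC50 change was 0.10 and not called (adjusted p = 0.336). MX1 and MX2, dynamin-like GTPases that trap incoming virus, moved little. MX1 rose by 0.37 at BEZ235 max (adjusted p = 0.00305), and MX2 rose by 0.26 at BEZ235 IC50, or by 0.17 on 39 arrays.

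Of the 4 transcription factors and cofactors tested, 1 rose at BEZ235 max, beside 32.8% of all genes. IRF9, a DNA-binding subunit of the complex at the ISRE, rose only at BKM120 IC30 (0.47, adjusted p = 0.00429). IRF7, which amplifies type I interferon production, had 33.3, 41.1, 31.9 and 34.2 at BEZ235 max, against 15.5, 23.8, 19.1 and 17.2 in DMSO. No arrays overlapped (log2 change 0.55, adjusted p = 0.000957). Its call at BEZ235 IC50 was lost without DMSO replicate 1 (0.36, adjusted p = 0.0586) and on 39 arrays (0.16, adjusted p = 0.236, beside 0.40 on 40 arrays). IRF1, a factor induced by interferon gamma, fell only at BEZ235 IC90 (-0.22, adjusted p = 0.0463). That call was lost without DMSO replicate 1, 3 or 4 or BEZ235 replicate 1 or 2 (adjusted p of up to 0.197). A second IRF1 probe set above the filter, not tested by itself, gave -0.46 at BEZ235 IC90 and -0.33 at BEZ235 max. PARP9, a partner of the ubiquitin ligase DTX3L, rose in 6 treatments, by 0.48 at BKM120 IC30 (adjusted p = 2.75e-05). A second PARP9 probe set above the filter had the same sign in 1 of those 6 treatments, with a change of 0.01 at BKM120 IC30, so no direction is drawn for the gene.

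**Figure D4:**
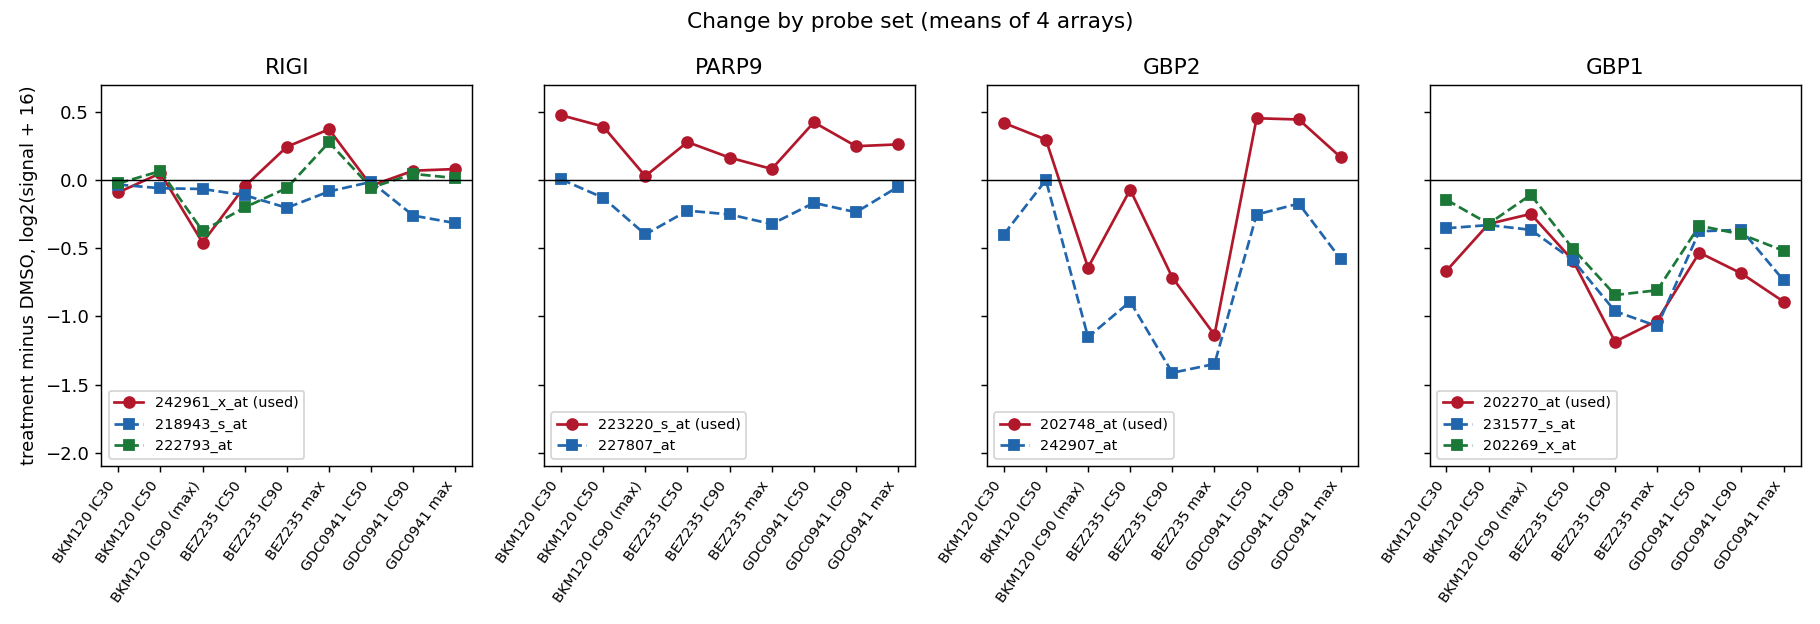
Log2 change against DMSO by probe set for RIGI, PARP9, GBP2 and GBP1 in the 9 treatments (means of 4 arrays); the solid line is the probe set used and dashed lines are the other sets above the filter on dim genes. The GBP1 sets ran together below 0, whereas those of PARP9 in every treatment but BKM120 IC30, and those of GBP2 at BKM120 IC30 and all 3 GDC0941 levels, lay on opposite sides of 0.

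Among the remaining effectors, IFI6, which protects cells from apoptosis, had 63.4, 50.3, 69.6 and 64.8 at BEZ235 max, against 36.7, 39.5, 27.4 and 19.0 in DMSO (log2 change 0.76, SE 0.15, adjusted p = 6.23e-05). Treated arrays were all the brighter ones. IFI35, a partner of NMI, fell by 0.30 at BEZ235 max (adjusted p = 0.00255) and rose at BKM120 IC30 (0.35, adjusted p = 0.00243). IFI44 had 364.2, 359.0, 342.8 and 357.0 at GDC0941 max, against 484.4, 501.8, 533.9 and 521.1 in DMSO, well separated (log2 change -0.50, adjusted p = 9.73e-07). IFI44L rose only at BEZ235 IC90 (0.41, adjusted p = 0.00705) and EPSTI1 only at BEZ235 max (0.36, adjusted p = 0.00601). The EPSTI1 rise was not called after quantile normalization (0.24, adjusted p = 0.0669) or with the mean over probe sets (0.09, adjusted p = 0.389). EPSTI1 was the dimmest of the genes tested. IFI27, XAF1 and TRIM22 stayed below the filter, and without a filter none of the 4 dim genes was called against DMSO.

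At IC50, no difference between BKM120 and GDC0941 was called on these genes. None of the 35 passed in limma, beside 0.598% of all genes (0.455% higher and 0.143% lower with BKM120), and 3 had an unadjusted p under 0.05, namely ISG20, IFIT5 and IFI44L. On 39 arrays 1 gene was called. The 95% intervals of the 35 differences all lay between -0.52 and 0.55, so differences of that size are not excluded by these arrays. Genes were called between BEZ235 IC50 and both. Against GDC0941 IC50, 9 genes were higher and 7 lower with BEZ235 (45.7%, beside 34.1% of all genes, 18.6% up and 15.5% down). BKM120 IC50 against BEZ235 IC50 gave 6 higher and 7 lower (37.1%, beside 32.1% of all genes, 15.2% up and 16.9% down). DDX60 had 279.8, 228.1, 304.1 and 284.6 at BEZ235 IC50, against 189.5, 156.3, 164.4 and 156.6 at GDC0941 IC50 (log2 difference 0.66, adjusted p = 3.59e-08). The 4 arrays of BEZ235 were all above those of GDC0941. Both comparisons hold BEZ235 IC50 replicate 3. On 39 arrays, without that replicate, 11 genes instead of 16 were called between BEZ235 IC50 and GDC0941 IC50, 10 of them shared. Between BKM120 IC50 and BEZ235 IC50, 11 instead of 13 were called there, 9 of them shared. Whether either share stays above that of all genes without this replicate was not tested. With only the 2 groups in the fit 5 and 3 genes were called.

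At IC90 the compounds separated further. BEZ235 against GDC0941 gave 14 genes higher and 6 lower (57.1%, beside 42.9% of all genes, 23% up and 20% down). IFIH1 had 279.3, 253.8, 302.6 and 255.0 at BEZ235 IC90, against 160.5, 157.2, 145.2 and 156.6 at GDC0941 IC90, with no overlap (log2 difference 0.75, adjusted p = 9.62e-09). GBP2 had 124.3, 119.0, 144.8 and 109.6 at BEZ235 IC90, against 318.5, 295.8, 285.9 and 287.2 at GDC0941 IC90. That was the widest gap of the comparison, at -1.16 (SE 0.09, adjusted p = 9.97e-13).

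At BKM120 IC90 (max), more genes were called lower than higher against either compound, and this also held over all genes. Against BEZ235 IC90, 3 genes were higher and 18 lower with BKM120 (60%, beside 45.1% of all genes, 18.5% up and 26.6% down). Against GDC0941 IC90, 4 were higher and 10 lower (40%, beside 29.9% of all genes, 11.7% up and 18.2% down). HERC5 had 221.6, 236.1, 232.2 and 223.3 at BKM120 IC90 (max), against 445.7, 486.2, 461.1 and 442.6 at BEZ235 IC90 (log2 difference -0.96, adjusted p = 2.46e-11). CMPK2 was lower with BKM120 than with either compound, by 0.70 against BEZ235 (log2 difference -0.70, adjusted p = 1.07e-08) and by 0.85 against GDC0941 (log2 difference -0.85, adjusted p = 2.35e-10). GBP1 was the gene with the widest difference in favour of BKM120 over BEZ235, at 0.94 (adjusted p = 2.18e-07). OAS3 was higher with BKM120 than with GDC0941 (0.48, adjusted p = 0.000424). RIGI was lower with BKM120 than with BEZ235 by its brightest probe set (-0.70), but the difference was 0.14 when cross-hybridising sets gave way to another set. The label IC90 (max) of BKM120 names its highest level, so the compounds may not be matched in any way other than by these labels.

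**Figure D5:**
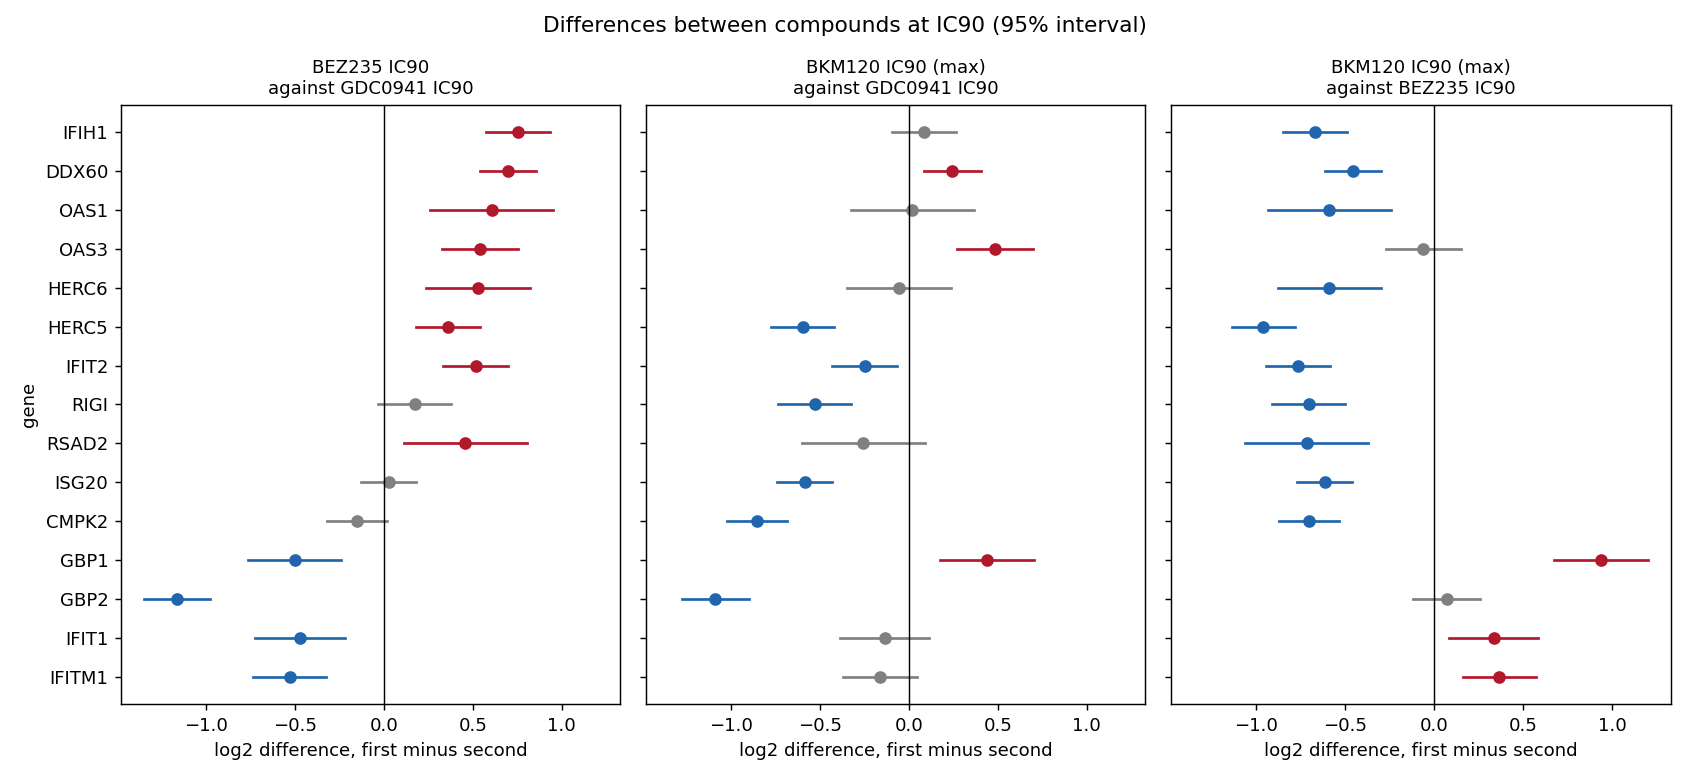
Log2 differences between compounds at IC90 for 15 interferon-stimulated genes (points, with 95% intervals), first-named compound minus second; red is a called higher value, blue a called lower value and grey not called. IFIH1, DDX60, OAS1, OAS3 and HERC6 were higher with BEZ235 than with GDC0941, whereas ISG20, CMPK2 and HERC5 were lower with BKM120 than with either compound.

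Within each compound the highest level was set against the lowest. BKM120 IC90 (max) against IC30 gave 5 genes higher and 12 lower (48.6%, beside 34% of all genes, 14.3% up and 19.7% down). GBP2 had 105.7, 141.3, 144.1 and 136.7 at IC90 (max), against 279.1, 304.3, 308.4 and 274.6 at IC30 (log2 difference -1.06, adjusted p = 1.16e-11). ISG20, CMPK2 and HERC5 were lower at IC90 (max) by 0.61 to 0.76 on the log2 scale, and OAS3 (0.55), IFI44L (0.51) and EPSTI1 (0.48) were higher. BEZ235 max against IC50 gave 12 higher and 7 lower (54.3%, beside 39.1% of all genes, 20.2% up and 18.9% down). This step holds BEZ235 IC50 replicate 3, and 8 genes were called with only the 2 groups fitted and 22 on 39 arrays, 17 of them shared with the 40-array calls. IFIH1, IFIT2, OAS3 and IFI44 were higher at BEZ235 max by 0.54 to 0.56, whereas GBP2 (-1.07) and IFITM1 (-0.53) were lower.

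GDC0941 max against IC50 gave 6 higher and 7 lower (37.1%, beside 29.6% of all genes, 16.3% up and 13.3% down), or 5 higher and 10 lower after quantile normalization. RSAD2 had 52.1, 58.6, 45.6 and 58.9 at max, against 31.9, 31.4, 21.9 and 25.4 at IC50 (log2 difference 0.68, adjusted p = 0.00237). Every array at max was the brighter. DDX60 (0.60) and HERC6 (0.57) were also higher at max, and IFIT1 (-0.51) was lower.

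The pathway around these genes was followed with lists of the interferons, receptors, regulators, sensors and further induced genes. Of the interferon genes, 11 were on the array and none passed the filter, with a highest signal of 8.1 on any array. IFNB1, the gene of interferon beta, ranged from 0.1 to 4.3. Of 10 receptor and kinase genes tested, 3 rose and 1 fell at BEZ235 max, beside 57.7% of all genes called. IFNGR1 (0.52, adjusted p = 0.00248), IFNGR2 (0.22, adjusted p = 0.000348) and IFNLR1 (0.35, adjusted p = 0.00306) rose, and IFNAR2 fell (-0.51, adjusted p = 0.00296). The size of the IFNGR1 rise rests on BEZ235 max replicate 3, at 733.3, without which it was 0.28 (adjusted p = 0.0445). IFNAR1 fell only at GDC0941 IC50 (-0.23), JAK1 rose only at GDC0941 max (0.19) and TYK2 rose only at BKM120 IC90 (max) (0.40). The IFNAR1 call was lost without DMSO replicate 3 or 4 or GDC0941 replicate 2, 3 or 4, and the JAK1 call without DMSO replicate 2 or 3 or GDC0941 replicate 2 or 3 (adjusted p of up to 0.102 and 0.0753). Of 6 negative regulators tested, 2 rose and 2 fell at BEZ235 max, beside 57.7% of all genes called, 32.8% up and 24.9% down. PTPN2, a phosphatase that acts on JAK and STAT proteins, had 570.4, 538.7, 576.1 and 570.5 at BEZ235 max, against 323.2, 315.1, 314.2 and 344.8 in DMSO (log2 change 0.77, adjusted p = 3.6e-11). All treated arrays were far above DMSO.

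Of 13 genes of nucleic acid sensing, 3 rose and 2 fell at BEZ235 max (38.5%, beside 57.7% of all genes). TLR3, an endosomal receptor for double-stranded RNA, had 232.3, 223.7, 235.4 and 226.6, against 118.5, 136.2, 99.2 and 107.7 in DMSO (log2 change 0.91, adjusted p = 1.53e-10). STING1, the adaptor of cytosolic DNA sensing, rose by 0.73 (adjusted p = 1.26e-06). TRAF3 (-0.43, adjusted p = 0.00739) and IRF3 (-0.33, adjusted p = 0.0132), which act downstream of the sensors, fell, IRF3 not without BEZ235 replicate 1 (adjusted p 0.0727). Of 23 further interferon-induced genes tested, 14 rose and 3 fell at BEZ235 max, 11 rose and 1 fell at GDC0941 max, and 6 rose and 3 fell at BKM120 IC90 (max). Over all genes 32.8% rose and 24.9% fell at BEZ235 max, 25.5% and 18.2% at GDC0941 max, and 17.2% and 17% at BKM120 IC90 (max). SP110, a nuclear body protein, had 386.2, 337.6, 393.3 and 376.5 at BEZ235 max, against 172.0, 160.4, 156.2 and 170.8 in DMSO (log2 change 1.11, SE 0.07, adjusted p = 3.37e-16). The SP110 probe set is a cross-hybridising design, and values of its other sets are not given here. PARP14 (0.95), SP100 (0.87) and NLRC5 (0.64), an activator of class I antigen presentation genes, rose at BEZ235 max as well. GBP3, a relative of GBP1 and GBP2, fell there (-0.62, adjusted p = 5.36e-06).

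Over the 40 arrays, the 35 genes did not form a single block. Over their 595 pairs the median Pearson correlation was 0.12, with 4 pairs above 0.8 and 38 below -0.5. The arrays share 10 treatment groups, and after the group means were removed the median was 0.03. IFIH1 and DDX60 lay closest, at 0.87, and OAS3 and GBP2 farthest apart, at -0.88.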

How the data were processed

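RNA of 40 A2058 cultures was hybridised to 1-colour arrays of 54675 probe sets after amplification of 50 ng total RNA, per the labels' protocols. The deposited intensity values were made with MAS5, per the submitters' processing notes, which name no version. They are linear, and the mean of each array without its highest and lowest 2% was 150.01 to 150.02. Arrays carry no read depth, so 4 arrays per group limit the precision.

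Arrays were grouped by the compound and level in their labels. Of the probe sets, 41091 carried 1 gene symbol, 1801 several, 11721 none and 62 were controls. Signals were transformed as log2(value + 16), so changes of dim genes are understated. Genes past the 40th percentile of mean brightness (a signal of 14.65) entered the fit with limma 3.58.1 (R 4.3.3), with 1 mean per group, 30 residual degrees of freedom and a variance trend. There were 18 comparisons, and genes were called at a Benjamini-Hochberg adjusted p under 0.05 within each. The procedure was tested on simulated data. Genes given with every value were those called at the highest level of a compound whose 4 values did not overlap with DMSO, up to 6 in each direction, with up to 3 at lower levels and 4 for pairs and dose steps; other genes of the list were added for their role. Members, lists and rules were chosen with earlier results of these data known. Alternatives varied the pseudocount, the filter, normalization, probe set choice, groups fitted, replicate block and arrays left out. Same-numbered arrays of different groups did not deviate together (residual correlations -0.32 to 0.31), so no block was used.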

Additional observations from a re-analysis of the deposited data

Results flagged for a closer look

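Signals far from the other 3 arrays of their group, by Dixon's criterion, were found in 17 of 350 groups of 4 arrays (4.86%), and chance alone flags about 5%. On BEZ235 IC50 replicate 3, the array with the high 3′ to 5′ control ratios, HERC5 was at 650.1, against a median of 391.1 on the others, and MX2 at 674.2, against 521.6. In the same group MX1 was at 37.0 on replicate 4, against 50.0. Elsewhere with BEZ235, USP18 was at 47.8 on IC90 replicate 2, against 53.7, and HERC5 at 459.7 on max replicate 1, against 435.4.

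With BKM120 IC30, OAS1 was at 32.8 on replicate 2, against 19.2. On replicate 4 of that group IRF1 was at 38.1, against 45.0, IFI35 at 725.6, against 918.8, and IFI44L at 15.5, against 12.8. With BKM120 IC50, IFITM3 was at 1693.9 on replicate 2, against 1855.2, and IRF7 at 23.8 on replicate 4, against 16.1. With BKM120 IC90 (max), IFITM3 was at 2000.6 on replicate 3, against 1845.0.

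With GDC0941, MX2 was at 532.2 on IC50 replicate 3, against 485.1, and at 485.0 on max replicate 2, against 529.0. RIGI was at 265.9 on GDC0941 max replicate 1, against 223.9. In DMSO, USP18 was at 32.8 on replicate 1, against 41.9, and EPSTI1 at 19.7 on replicate 4, against 15.1.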

How the results depend on the processing

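Counts of called genes among the list were recomputed under 10 alternatives and with each array left out in turn. The 60th percentile filter leaves 17 of the 35 genes, so its counts fell by construction: 6 (BKM120 IC30), 11 (BKM120 IC90 (max)), 11 (BEZ235 IC50), 12 (BEZ235 IC90), 9 (BEZ235 max), 4 (GDC0941 IC50) and 9 (GDC0941 max) against DMSO, 11 for BKM120 IC90 (max) against BEZ235 IC90, 8 for BEZ235 IC90 against GDC0941 IC90, and 11, 10 and 8 for the dose steps of BKM120, BEZ235 and GDC0941. With only the 2 groups fitted, counts were 15 (BKM120 IC50) and 10 (BEZ235 IC50) against DMSO, 3 for BKM120 IC50 against BEZ235 IC50, 5 for BEZ235 IC50 against GDC0941 IC50 and 8 for BEZ235 max against IC50. On 39 arrays they were 15 for BKM120 IC50 against DMSO and 1 for BKM120 IC50 against GDC0941 IC50. The cause of the changes other than under the filter was not tested. The other 161 recomputed counts stayed within 1.5 times the reported ones.

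With 1 array left out, counts against DMSO were 10 to 13, 7 to 11 and 13 to 16 for BKM120 IC30, IC50 and IC90 (max), 19 to 21, 23 to 26 and 21 to 23 for BEZ235 IC50, IC90 and max, and 7 to 10, 10 to 13 and 12 to 15 for GDC0941 IC50, IC90 and max. Between compounds they were 11 to 14, 0 to 0 and 11 to 16 at IC50 and 18 to 20, 10 to 13 and 17 to 19 at IC90, in the order BKM120 against BEZ235, BKM120 against GDC0941 and BEZ235 against GDC0941. For the dose steps they were 16 to 21 (BKM120), 15 to 22 (BEZ235) and 10 to 13 (GDC0941). With the replicate block, 11 genes were called at BKM120 IC50, 27 at BEZ235 IC90 and 21 at BEZ235 max; the arrays share only a number. Of 310 changes of single genes, 73 lost their call without 1 array, and over all settings 5022 recomputed values kept the call and 420 lost it. A sign turned 5 times, each time for RIGI: with another probe set it was -0.20 at BEZ235 IC90, -0.0822 at BEZ235 max, and 0.14 and 0.20 for BKM120 IC90 (max) against BEZ235 IC90 and GDC0941 IC90, and with the mean over probe sets it was -0.0045 at BEZ235 IC90.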

Other observations

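Outside the list, the 5 tested genes whose signal over the 40 arrays ran most closely with the mean z-score of the 35 interferon-stimulated genes were RAP1GAP (Pearson correlation 0.89), NPRL2 (0.85), C10orf95-AS1 (0.84), PUS3 (0.84) and SPRY1 (0.835). The arrays share 10 treatment groups, so these values describe a common pattern over treatments and carry no test.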
